A study of Mus musculus with 6 samples.

Results

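The 10 genes described here encode the proteins that govern the step from G1 into S phase: the D-type cyclins Ccnd1, Ccnd2 and Ccnd3, their kinases Cdk4 and Cdk6, the Cip/Kip inhibitors Cdkn1a, Cdkn1b and Cdkn1c, and the INK4 inhibitors Cdkn2c and Cdkn2d. They were taken by symbol, by gene family and not by any measured value, out of 16135 genes listed in at least 1 library. Earlier results of these data were known when they were chosen. All 10 had a row in every library. A filter on low counts left 9 of them among the 12127 genes tested, and Cdkn1c was not tested.

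The cells were common dendritic cell progenitors, which develop into dendritic cells, separated into CD115-Ly6C-, CD115+Ly6C+ and CD115+Ly6C- subsets, with 2 polyA RNA libraries each. CD115, the M-CSF receptor, is encoded by Csf1r, and Ly6C is a surface antigen of monocytes and their precursors. All 3 subsets came from the bone marrow of wildtype C57BL/6 mice aged 6 to 8 weeks, and the labels name no treatment or altered allele. Nothing in the labels ties the libraries of a subset to separate mice or sorts, so a p-value here reflects the spread between these libraries alone, which may be technical.

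In mammalian cells, D-type cyclins bind Cdk4 or Cdk6, and the active kinase phosphorylates the retinoblastoma protein, which releases E2F factors that switch on genes of DNA replication. INK4 proteins bind Cdk4 and Cdk6 and keep the cyclin away, whereas Cip/Kip proteins bind whole cyclin-kinase complexes and are known above all for blocking Cdk2. In blood formation, Ccnd2, Ccnd3 and Cdk6 are known for driving the expansion of progenitors, and Cdkn1a, Cdkn1c and Cdkn2c for restraining the cycling of stem cells in mice.

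Libraries held 17961541 to 19450329 counts and 13307 to 14127 genes. Levels are given in FPKM (fragments scaled by transcript length and by library size), a unit per length that lets genes be set side by side. The progenitor genes Flt3 (91.1 to 355.8 FPKM) and Kit (9.06 to 41.1 FPKM) were present in all 6 libraries. Of the sort markers, Ly6c2 stood at 70.4 and 101.2 FPKM in CD115-Ly6C-, 2117 and 2005 FPKM in CD115+Ly6C+, and 185 and 289 FPKM in CD115+Ly6C-. Csf1r was at 62.8 and 74.2 FPKM in CD115-Ly6C-, so the subset sorted as CD115- was not without its transcript, against 142 and 133 FPKM in CD115+Ly6C+ and 109.8 and 138 FPKM in CD115+Ly6C-. Markers of other cell types differed between subsets. The 11 late neutrophil granule genes summed to 347 and 162 CPM (counts scaled to library size) in CD115-Ly6C-, 4078 and 3731 CPM in CD115+Ly6C+, and 231 and 935 CPM in CD115+Ly6C-, and none of them was at 0 in a subset. The 10 monocyte genes, which include the sort markers Ly6c2 and Csf1r, summed to 2800 and 3197 CPM in CD115-Ly6C-, 7848 and 7976 CPM in CD115+Ly6C+, and 4468 and 5017 CPM in CD115+Ly6C-. None of them was at 0 in a subset. The 11 early lymphoid genes summed to 3835 and 3319 CPM in CD115-Ly6C-, 148 and 169 CPM in CD115+Ly6C+, and 490.5 and 581 CPM in CD115+Ly6C-, with Pax5 at 0 in both CD115+ subsets. The 12 stem and multipotent progenitor genes summed to 2444 and 2179 CPM in CD115-Ly6C-, 689 and 622 CPM in CD115+Ly6C+, and 1361 and 1262 CPM in CD115+Ly6C-, with Fgd5 at 0 in both CD115+ subsets and Mecom at 0 in CD115+Ly6C+. The part of these cell types in the results below was not tested.

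Cdk4 was the most abundant of the 10 genes in every library and Ccnd3 the second. In CD115-Ly6C- the order of mean levels then ran through Ccnd2, Cdk6, Cdkn2d, Cdkn1a, Ccnd1, Cdkn2c, Cdkn1b and Cdkn1c, and only the libraries of Cdk6 and Cdkn2d overlapped between neighbours. In CD115+Ly6C+ Cdkn2d moved up to the third place and Cdkn1a down behind Cdkn2c, and only Cdk6 and Ccnd2 overlapped. In CD115+Ly6C- the libraries of Cdk6, Cdkn2d and Ccnd2 overlapped with each other, and those of the other neighbours did not.

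**Figure D1:**
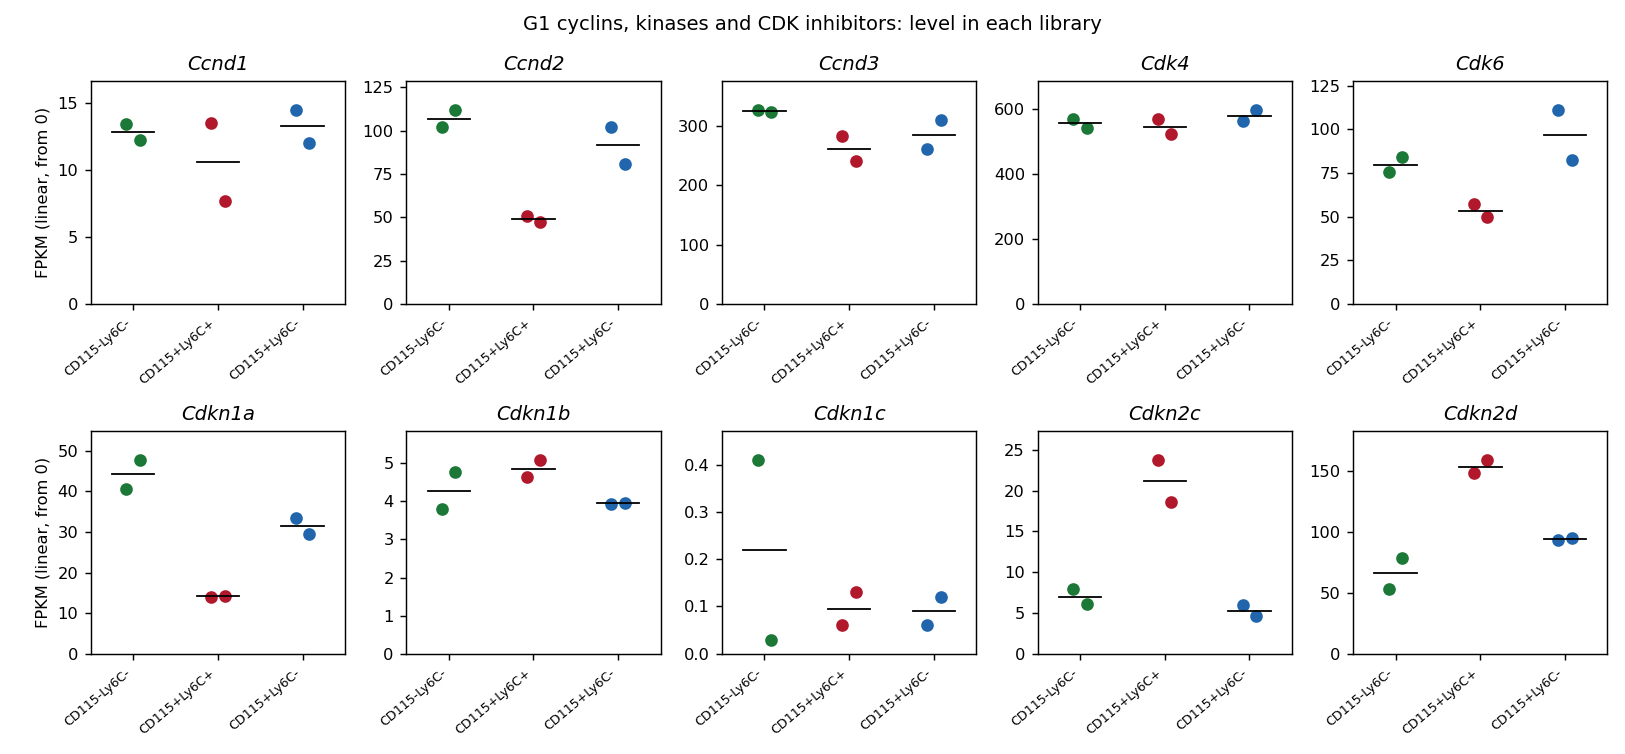
Level of each gene in FPKM (linear axes that start at 0 and differ between panels) in CD115-Ly6C-, CD115+Ly6C+ and CD115+Ly6C-; points are libraries and lines are means of 2. Cdkn2c and Cdkn2d are highest in CD115+Ly6C+ and Cdkn1a, Ccnd2 and Cdk6 lowest, whereas Cdk4 lies between 521 and 596 FPKM everywhere.

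The CD115+Ly6C+ subset differed from CD115+Ly6C- in 5 of the 9 tested genes. Both INK4 genes among the members, Cdkn2c and Cdkn2d, were higher in CD115+Ly6C+. The Cip/Kip inhibitor Cdkn1a, the cyclin Ccnd2 and the kinase Cdk6 were lower there. A gene was called at an adjusted p below 0.05 in edgeR's quasi-likelihood test, over all 12127 genes. Of those 9.60% were called, 5.26% higher and 4.34% lower, whereas 2 of the 9 members were higher and 3 lower.

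Between CD115-Ly6C- and CD115+Ly6C+, 4 of the 9 were called. Ccnd2 and Cdkn1a were higher in CD115-Ly6C- and Cdkn2c and Cdkn2d lower. Here 39.3% of all tested genes were called, 20.1% higher and 19.2% lower, so the share called among the 9 was near that of all genes. The subsets CD115-Ly6C- and CD115+Ly6C- differed in 1 gene, Cdkn2d, which was lower in CD115-Ly6C-, while 15.2% of all genes were called, 8.43% higher and 6.78% lower. The 3 comparisons share libraries, so they are not independent. In bulk samples, fewer cells of a kind and less RNA per cell cannot be told apart.

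**Figure D2:**
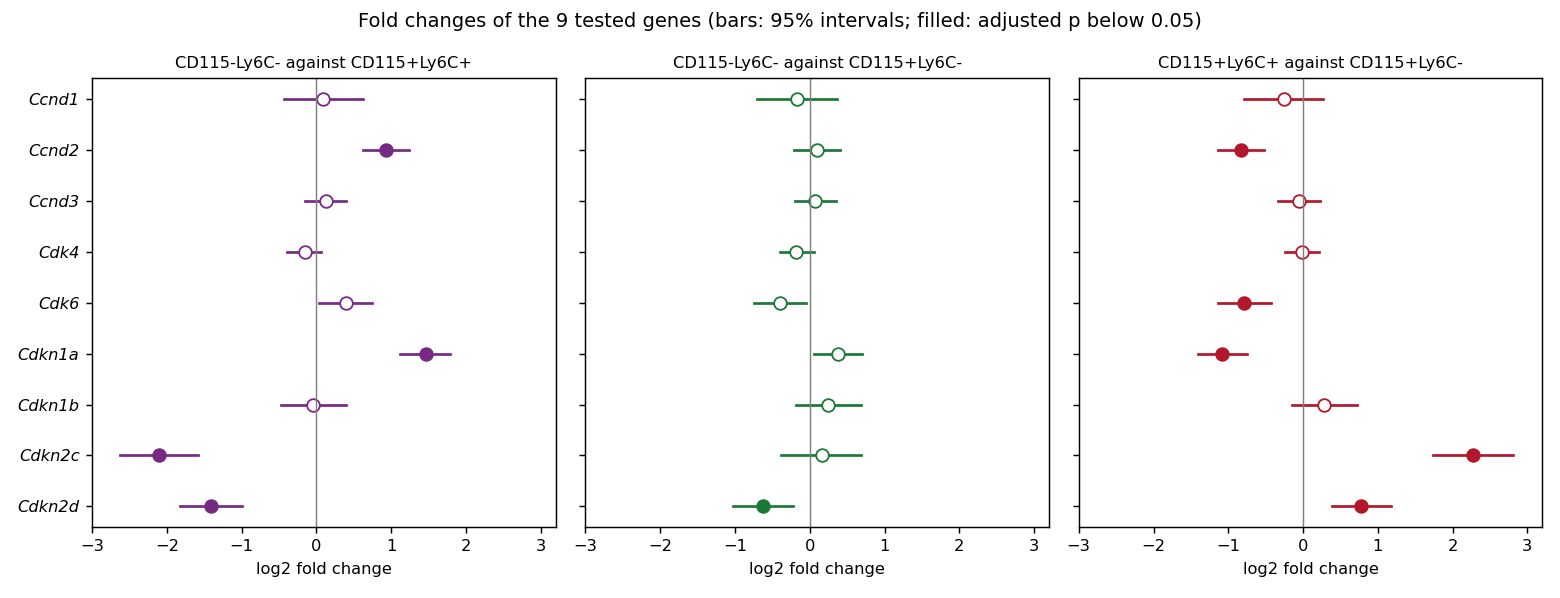
Log2 fold change of the 9 tested genes (rows) in the 3 comparisons (panels), with 95% intervals; filled points have an adjusted p below 0.05. Cdkn2c has the largest fold changes, 2.27 for CD115+Ly6C+ against CD115+Ly6C- and -2.11 for CD115-Ly6C- against CD115+Ly6C+, and 1 gene is filled in the middle panel.

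Scaling moved the balance of calls over all genes. When libraries were scaled by their totals alone, the median log2 fold change of all genes shifted by -0.07 for CD115+Ly6C+ against CD115+Ly6C-, by 0.12 for CD115-Ly6C- against CD115+Ly6C- and by 0.19 for CD115-Ly6C- against CD115+Ly6C+. The split of calls for CD115+Ly6C+ against CD115+Ly6C- was then 485 higher and 777 lower, against 638 and 526 with TMM scaling. For CD115-Ly6C- against CD115+Ly6C- it was 1383 higher and 479 lower, against 1022 and 822, and for CD115-Ly6C- against CD115+Ly6C+ it was 3504 higher and 1518 lower, against 2435 and 2333. The members called in CD115+Ly6C+ against CD115+Ly6C- numbered 2 higher and 3 lower under either scaling. Library totals turned the split of members for CD115-Ly6C- against CD115+Ly6C- to 1 higher (Cdkn1a) and 0 lower, against 0 and 1.

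Among the D-type cyclins, Ccnd3, known for its role in the expansion of lymphoid precursors, made up 69.1% to 81.4% of the summed cyclin FPKM. Its levels were 327 and 323 FPKM in CD115-Ly6C-, 282 and 241 FPKM in CD115+Ly6C+, and 261 and 309.9 FPKM in CD115+Ly6C-. No difference was detected, with log2 fold changes of -0.05 (95% interval -0.33 to 0.22) for CD115+Ly6C+ against CD115+Ly6C- and 0.13 (-0.15 to 0.40) for CD115-Ly6C- against CD115+Ly6C+. Its transcript shares 361 exonic bases with Bysl on the opposite strand (11.8 to 14.6 FPKM), and no label says whether the libraries kept strand, so reads there cannot be told apart.

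Ccnd2 was the cyclin that differed between subsets. It stood at 102 and 112 FPKM in CD115-Ly6C-, 50.8 and 47.4 FPKM in CD115+Ly6C+, and 102 and 80.9 FPKM in CD115+Ly6C-. Both CD115+Ly6C+ libraries lay below the other 4, and the other subsets overlapped. Its log2 fold change was -0.83 (SE 0.14, edgeR adjusted p = 0.0102) for CD115+Ly6C+ against CD115+Ly6C-, and it was 0.93 (SE 0.14, edgeR adjusted p = 0.00113) for CD115-Ly6C- against CD115+Ly6C+. The first of these calls did not pass with CD115+Ly6C- replicate 1 left out (edgeR adjusted p = 0.065) or CD115+Ly6C+ replicate 2 left out (0.0677), and the other held in all 17 alternatives. Ccnd2 (Entrez gene 12444, chromosome 6, 127125162 to 127152188) made up 14.7% and 16% of the cyclin FPKM in CD115+Ly6C+, below its share in each of the other 4 libraries.

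Ccnd1, the cyclin best known from epithelial tissues, was low throughout. It had 13.4 and 12.25 FPKM in CD115-Ly6C-, 13.5 and 7.67 FPKM in CD115+Ly6C+, and 14.5 and 12 FPKM in CD115+Ly6C-. The libraries of all subsets overlapped and no comparison was called (edgeR adjusted p from 0.509 to 0.792). It shares 1100 exonic bases on the opposite strand with Lto1, which stood at 15.6 to 21.1 FPKM.

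Of the kinases, Cdk4 supplied 83.5% to 91.3% of the summed FPKM of Cdk4 and Cdk6. It stood at 569.5 and 542 FPKM in CD115-Ly6C-, 568 and 521 FPKM in CD115+Ly6C+, and 562 and 596 FPKM in CD115+Ly6C-. The interval of its log2 fold change was -0.24 to 0.21 for CD115+Ly6C+ against CD115+Ly6C-, -0.40 to 0.05 for CD115-Ly6C- against CD115+Ly6C- and -0.39 to 0.06 for CD115-Ly6C- against CD115+Ly6C+, and none was called. Tspan31, a gene on the opposite strand, shares 641 exonic bases with Cdk4 and stood at 143 to 204 FPKM, so part of either value may belong to the other.

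Cdk6, the kinase best known from blood cells, was called in 1 comparison. Its levels were 75.7 and 84 FPKM in CD115-Ly6C-, 57 and 49.9 FPKM in CD115+Ly6C+, and 111 and 82.8 FPKM in CD115+Ly6C-. The CD115+Ly6C+ libraries were the lowest of the 6. For CD115+Ly6C+ against CD115+Ly6C- the log2 fold change was -0.79 (SE 0.16, edgeR adjusted p = 0.0199). That call did not pass in 5 of 17 alternatives: on leaving out CD115+Ly6C- replicate 1 (edgeR adjusted p = 0.118), CD115+Ly6C+ replicate 1 (0.0603) or CD115+Ly6C+ replicate 2 (0.108), with the trend on transcript length removed (0.0643) and with limma on unfiltered FPKM (0.0675). The other comparisons of Cdk6 were not called, with log2 fold changes of -0.40 (edgeR adjusted p = 0.115) for CD115-Ly6C- against CD115+Ly6C- and 0.39 (edgeR adjusted p = 0.0765) for CD115-Ly6C- against CD115+Ly6C+. They passed in 3 and 8 of the 17 alternatives.

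Cdkn2c encodes the INK4 protein p18, which in mice limits the renewal of blood stem cells. It stood at 7.95 and 6.06 FPKM in CD115-Ly6C-, 23.8 and 18.6 FPKM in CD115+Ly6C+, and 5.94 and 4.61 FPKM in CD115+Ly6C-. The CD115+Ly6C+ libraries lay far above the other 4, on 721 and 591 counts against 126 to 204. The log2 fold change was 2.27 (SE 0.23, edgeR adjusted p = 0.00162) for CD115+Ly6C+ against CD115+Ly6C-, and it was -2.11 (SE 0.23, edgeR adjusted p = 2.84e-04) for CD115-Ly6C- against CD115+Ly6C+. Both calls held in all 17 alternatives. Between CD115-Ly6C- and CD115+Ly6C- the log2 fold change was 0.16 (95% interval -0.38 to 0.69) and was not called.

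Cdkn2c (Entrez gene 12580, chromosome 4, 109660876 to 109666756, minus strand) has 2 transcripts in GENCODE, of 2471 nt and, from the downstream start, 1106 nt. The transcript length that RSEM assigned to the gene, weighted by the estimated share of its transcripts, was 1582 and 1445 nt in CD115-Ly6C-, 1786 and 1944 nt in CD115+Ly6C+, and 1672 and 1617 nt in CD115+Ly6C-. No subsets overlapped, with CD115+Ly6C+ longest and CD115-Ly6C- shortest. Over the 4826 genes with at least 2 transcripts and 100 counts in every library, lengths without overlap were common: 14.9% were longer in CD115+Ly6C+ than in CD115+Ly6C-. In CD115-Ly6C-, 14.9% were shorter than in CD115+Ly6C- and 15.0% shorter than in CD115+Ly6C+. The size of the Cdkn2c difference was less common. The ratio of its mean lengths was 1.13 for CD115+Ly6C+ over CD115+Ly6C-, and 1.6% of those genes had one as far from 1 in either direction. It was 0.92 for CD115-Ly6C- over CD115+Ly6C- (2.3% of genes as far) and 0.811 over CD115+Ly6C+ (0.8%). Outside CD115+Ly6C+ the weighted length rests on 126 to 204 counts a library, near the floor of 100. The CD115-Ly6C- libraries themselves differed, at 1582 and 1445 nt, and the uncertainty of the length was not estimated. The test on counts did not use this length, whereas the FPKM values are divided by it.

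**Figure D3:**
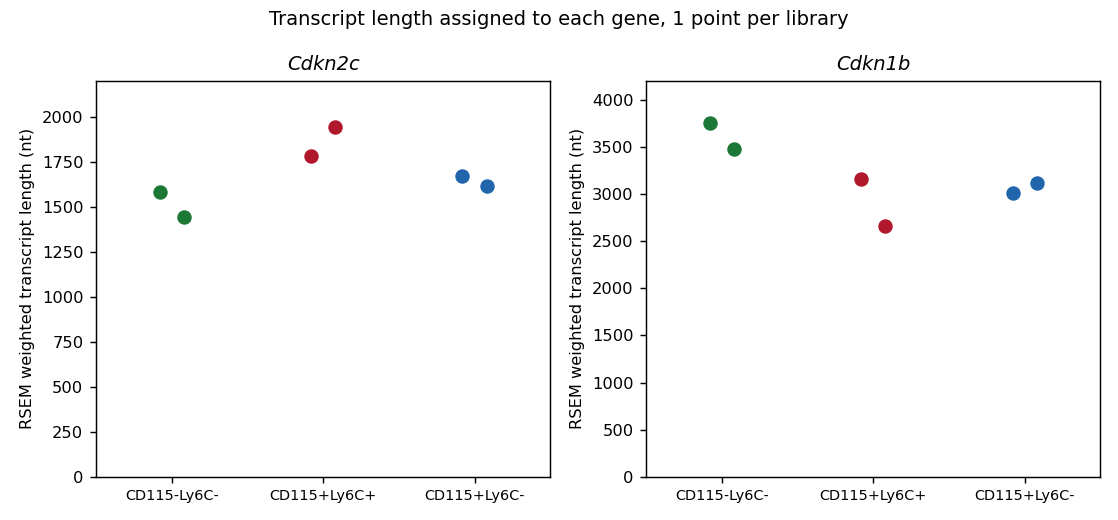
RSEM weighted transcript length in nucleotides (linear axes from 0) for Cdkn2c and Cdkn1b in CD115-Ly6C-, CD115+Ly6C+ and CD115+Ly6C-; each point is a library. Cdkn2c is longest in CD115+Ly6C+ at 1786 and 1944 nt, and Cdkn1b longest in CD115-Ly6C- at 3753 and 3475 nt.

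Promoter windows from RefSeq (GRCm38.p6, 250 bases before to 50 after a start site) were at hand for 7 of the 10 genes, in 10 windows. They were searched on both strands for 3 motifs: an E2F site (TTTCGCGC, TTTCGCGG, TTTGGCGC or TTTGGCGG), the E-box CACGTG, and a p53 response element made of its paired arms without a spacer. The 2 Cdkn2c windows are shown because the gene differed most and its transcripts start at different sites. The upstream window is set on the RefSeq start at 109666756, whereas the 2471 nt transcript of GENCODE begins at 109667189, outside that window. Capitals mark the matches.
Cdkn2c, upstream start, chr4:109666707-109667006, minus strand: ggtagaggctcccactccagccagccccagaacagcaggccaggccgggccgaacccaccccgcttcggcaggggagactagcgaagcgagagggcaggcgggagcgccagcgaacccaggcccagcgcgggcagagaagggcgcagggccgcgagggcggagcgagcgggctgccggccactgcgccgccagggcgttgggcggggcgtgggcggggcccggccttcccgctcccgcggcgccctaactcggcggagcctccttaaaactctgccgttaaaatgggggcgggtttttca
Cdkn2c, downstream start, chr4:109665323-109665622, minus strand: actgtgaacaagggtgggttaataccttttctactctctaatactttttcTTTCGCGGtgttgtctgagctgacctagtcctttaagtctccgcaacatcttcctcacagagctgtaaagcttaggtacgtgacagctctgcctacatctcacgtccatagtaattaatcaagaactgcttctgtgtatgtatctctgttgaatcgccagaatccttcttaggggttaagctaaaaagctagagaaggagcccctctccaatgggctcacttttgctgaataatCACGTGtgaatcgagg
The downstream window held an E2F match (TTTCGCGG) that begins 200 bases before the start site, at position -200, and an E-box that begins at position 34, counted from 0 at the start site. The upstream window held neither. Elsewhere the E-box had 4 matches in the Cdk4 window and 1 in the Cdk6 window, and the other 6 windows held neither motif. Over all 32851 windows of the table, 1.6% held the E2F site and 7.15% the E-box. A match describes letters and is no evidence of binding.

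Cdkn2d encodes the INK4 protein p19, which like p18 binds Cdk4 and Cdk6. It had 53.1 and 78.5 FPKM in CD115-Ly6C-, 148 and 159 FPKM in CD115+Ly6C+, and 92.8 and 95.1 FPKM in CD115+Ly6C-. The 3 subsets did not overlap, with CD115+Ly6C+ highest and CD115-Ly6C- lowest, though the CD115-Ly6C- libraries lay far apart. Against CD115+Ly6C+, CD115-Ly6C- was lower by a log2 fold change of -1.41 (SE 0.18, edgeR adjusted p = 5.66e-04), a call that held in all 17 alternatives.

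The differences of Cdkn2d from CD115+Ly6C- were less firm. For CD115+Ly6C+ the log2 fold change was 0.78 (SE 0.18, edgeR adjusted p = 0.0306), called in 11 of 17 alternatives. It did not pass on leaving out either CD115+Ly6C- library (edgeR adjusted p = 0.169 for replicate 1, 0.117 for replicate 2) or either CD115+Ly6C+ library (0.0775 for replicate 1, 0.131 for replicate 2), with the length trend removed (0.0727) and with limma on unfiltered FPKM (0.112). Set against CD115+Ly6C-, CD115-Ly6C- had one of -0.63 (SE 0.18, edgeR adjusted p = 0.0468), called in 5 of 17. Leaving out 1 library ended that call for CD115-Ly6C- replicate 1 (0.244), CD115+Ly6C- replicate 1 (0.176) and replicate 2 (0.143), and CD115+Ly6C+ replicate 1 or 2 (0.0602 each), as did library totals, a stricter filter, a fit on the 2 subsets alone, the length trend and the 3 limma fits. Markers of other myeloid cells stood beside these differences. Of the 10 monocyte genes, CD115+Ly6C+ had 7 higher when set against CD115+Ly6C-, and in CD115-Ly6C- 7 were lower than in CD115+Ly6C- and 9 lower than in CD115+Ly6C+, the same order as Cdkn2d. These shares of 70.0%, 70.0% and 90.0% stand beside 9.60%, 15.2% and 39.3% of all tested genes. The list holds Ly6c2 and Csf1r, the genes of the sort antigens, so its order is not independent of the sort. Of the 11 late neutrophil granule genes, CD115+Ly6C+ had 10 higher when set against CD115+Ly6C-, and all 11 were lower in CD115-Ly6C- than in CD115+Ly6C+. In CD115-Ly6C- against CD115+Ly6C-, where Cdkn2d was called, 1 of those 11 was lower, and their sums overlapped. That was 9.1% of the late neutrophil list, against 15.2% of all tested genes. For the 7 early neutrophil granule genes, calls also ran in the direction of Cdkn2d. Set against CD115+Ly6C-, CD115+Ly6C+ had 5 higher (71.4%) and CD115-Ly6C- 4 lower (57.1%). Set against CD115+Ly6C+, CD115-Ly6C- had 6 lower (85.7%). Their sums overlapped between the CD115+ subsets, at 5032 and 5643 CPM in CD115+Ly6C+ and 5371.5 and 4581 CPM in CD115+Ly6C-. The part of any of these lists in the differences was not tested.

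The promoter of Cdkn2d, which moved in the same direction as Cdkn2c in CD115+Ly6C+ against both others, is shown for comparison with those of Cdkn2c, and it held none of the 3 motifs.
Cdkn2d, chr9:21291160-21291459, minus strand: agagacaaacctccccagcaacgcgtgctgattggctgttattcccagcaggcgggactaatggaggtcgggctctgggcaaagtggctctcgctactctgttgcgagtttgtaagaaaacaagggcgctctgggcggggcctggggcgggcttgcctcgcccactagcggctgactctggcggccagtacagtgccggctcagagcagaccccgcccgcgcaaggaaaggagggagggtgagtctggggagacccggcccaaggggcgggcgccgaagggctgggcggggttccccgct

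Cdkn1a encodes p21, the Cip/Kip inhibitor that p53 induces. It stood at 40.6 and 47.8 FPKM in CD115-Ly6C-, 13.9 and 14.3 FPKM in CD115+Ly6C+, and 33.3 and 29.4 FPKM in CD115+Ly6C-. The subsets did not overlap and ran opposite to Cdkn2d, with CD115-Ly6C- highest and CD115+Ly6C+ lowest. The log2 fold change was -1.08 (SE 0.15, edgeR adjusted p = 0.00428) for CD115+Ly6C+ against CD115+Ly6C-, and it was 1.46 (SE 0.15, edgeR adjusted p = 1.86e-04) for CD115-Ly6C- against CD115+Ly6C+, and both calls held in all 17 alternatives. For CD115-Ly6C- against CD115+Ly6C- it was 0.38 (95% interval 0.05 to 0.70, edgeR adjusted p = 0.107) and was not called, though it passed with library totals (0.0403) and with limma on log2(FPKM + 1) (0.0337) or log2(FPKM + 0.1) (0.0364). The summed stem and multipotent progenitor markers, given above, had the same order over the subsets as Cdkn1a. That order was not particular to them, since the early lymphoid sum, given above, had it too. So had the T and NK cell genes (319 and 320 CPM in CD115-Ly6C-, 32.2 and 36.7 CPM in CD115+Ly6C+, 101 and 87 CPM in CD115+Ly6C-). The erythroid sum shared it (124 and 106 CPM, 22.1 and 27.7 CPM, 50.7 and 27.9 CPM, subsets in the same sequence). That sum was mostly Car2, with TMM-scaled means of 94, 11.7 and 27.5 CPM in that sequence. Of the 8 erythroid genes tested, 3 were above 0 and 5 below 0 in CD115-Ly6C- against CD115+Ly6C+ (median log2 fold change -0.19). The part of these lists was not tested.

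The weighted length of Cdkn1a (Entrez gene 12575, chromosome 17, 29090979 to 29100722) was 1913 nt in 5 libraries and 1914 nt in CD115-Ly6C- replicate 2. GENCODE lists 1913 nt for the transcript from the downstream start. The windows of both starts are shown because Cdkn1a is the textbook target of p53.
Cdkn1a, upstream start, chr17:29090729-29091028, plus strand: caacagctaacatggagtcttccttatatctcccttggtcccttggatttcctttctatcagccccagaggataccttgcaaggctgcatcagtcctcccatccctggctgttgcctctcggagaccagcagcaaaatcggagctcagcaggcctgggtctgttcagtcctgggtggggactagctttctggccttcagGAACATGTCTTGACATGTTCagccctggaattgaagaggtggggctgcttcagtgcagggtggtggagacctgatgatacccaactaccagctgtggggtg
Cdkn1a, downstream start, chr17:29093519-29093818, plus strand: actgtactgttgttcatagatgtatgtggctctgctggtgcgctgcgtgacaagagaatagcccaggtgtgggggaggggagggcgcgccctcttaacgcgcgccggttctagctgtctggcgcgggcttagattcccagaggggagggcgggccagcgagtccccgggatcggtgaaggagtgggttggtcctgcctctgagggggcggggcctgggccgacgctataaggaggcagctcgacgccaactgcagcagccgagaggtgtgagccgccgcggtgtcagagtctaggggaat
Searched without mismatch, the p53 element was in none of the 10 windows and in 3 of all 32851 (0.00913%). A looser search was added after that result, and after the element in the upstream window had been recognised by eye: it allowed 1 mismatch outside the central C and G of each arm. It matched that window, at position -51, and was in 22 of all windows (0.067%), with no other among the 10. The position is counted from the upstream start, whose GENCODE transcript has 922 nt. The weighted lengths above were those of the transcript from the downstream start.

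Cdkn1b and Cdkn1c, the other Cip/Kip genes, were low. Cdkn1b, which encodes p27, had 3.8 and 4.76 FPKM in CD115-Ly6C-, 4.63 and 5.09 FPKM in CD115+Ly6C+, and 3.92 and 3.97 FPKM in CD115+Ly6C-. No comparison was called (edgeR adjusted p from 0.368 to 0.878). For CD115+Ly6C+ against CD115+Ly6C- the interval of its log2 fold change was -0.15 to 0.72. Its weighted length, 3753 and 3475 nt in CD115-Ly6C-, 3156 and 2667 nt in CD115+Ly6C+, and 3013 and 3122 nt in CD115+Ly6C-, was longest in CD115-Ly6C-, as for 21.6% of genes against CD115+Ly6C- and 25.5% against CD115+Ly6C+. The ratio of mean lengths was 1.18 over CD115+Ly6C- and 1.24 over CD115+Ly6C+, and 0.6% and 0.8% of the 4826 genes had one as far from 1 in either direction. Its weighted length rests on 216 to 298 counts a library, and the uncertainty was not estimated here either. Cdkn1c, which encodes p57 and is a known mark of resting blood stem cells, had 13 and 1 counts in CD115-Ly6C-, against 2 and 4 counts in each CD115+ subset. A single CD115-Ly6C- library thus held as many of its reads as the other 5 together, and no difference was detectable at this depth.

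Summed by family, the inhibitors shifted against each other, though each sum was mostly a gene already described. Cdkn2d made up 86.1% to 95.4% of the INK4 sum and Cdkn1a 73.3% to 90.9% of the Cip/Kip sum. Cdkn1b, not called, did not follow Cdkn1a, with means of 4.28 FPKM in CD115-Ly6C-, 4.86 FPKM in CD115+Ly6C+ and 3.945 FPKM in CD115+Ly6C-. The INK4 genes Cdkn2a and Cdkn2b were listed in no library and are not in the sum. The INK4 genes summed to 61 and 84.5 FPKM in CD115-Ly6C-, 172 and 177 FPKM in CD115+Ly6C+, and 98.8 and 99.7 FPKM in CD115+Ly6C-. The Cip/Kip genes summed to 44.8 and 52.5 FPKM in CD115-Ly6C-, 18.6 and 19.6 FPKM in CD115+Ly6C+, and 37.3 and 33.5 FPKM in CD115+Ly6C-. The INK4 sum was highest and the Cip/Kip sum lowest in CD115+Ly6C+. The ratio of Cdkn2d to Cdkn1a FPKM was 1.31 and 1.64 for CD115-Ly6C-, 10.6 and 11.1 for CD115+Ly6C+, and 2.79 and 3.23 for CD115+Ly6C-. Set against the kinases they inhibit, the INK4 sum was 9.46% and 13.5% of the Cdk4 and Cdk6 FPKM in CD115-Ly6C-, 27.5% and 31.1% for CD115+Ly6C+, and 14.7% for both CD115+Ly6C- libraries.

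**Figure D4:**
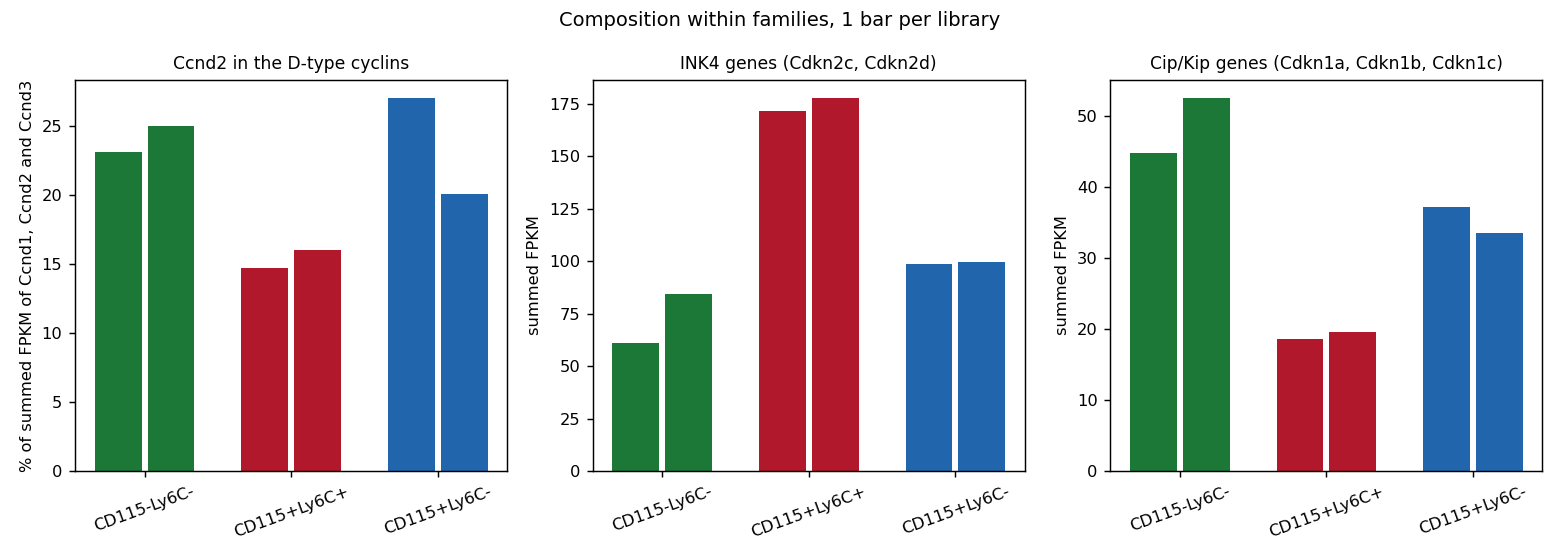
Share of Ccnd2 in the summed FPKM of the D-type cyclins (left), and summed FPKM of the INK4 genes Cdkn2c and Cdkn2d (middle) and of the Cip/Kip genes (right). Each bar is a library, 2 per subset, on axes from 0. The INK4 sum is highest in CD115+Ly6C+ (172 and 177 FPKM), where the Cip/Kip sum is lowest (18.6 and 19.6 FPKM).

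The genes that act with this machinery were read next, as lists. Of 28 tested partners of the G1 machinery, 3 were higher and 0 lower in CD115+Ly6C+ than in CD115+Ly6C- (median log2 fold change 0.08, against -0.01 for all genes). Those 3 were E2f2, a transcription factor of S phase genes, Cks1b, a subunit of Cdk complexes, and Ccna2, the cyclin of S phase. They made up 10.7% of the list, near the 9.60% of all tested genes that were called. Set against CD115+Ly6C-, the CD115-Ly6C- subset had 2 of the 28 higher and 7 lower (median -0.27, against 0.02 for all genes). That was 32.1% of the list, beside 15.2% of all tested genes. Set against CD115+Ly6C+, the CD115-Ly6C- subset had 3 higher and 11 lower (median -0.44, against 0.03 for all genes). There 14 of the 28 were called, beside 39.3% of all tested genes. Ccna2 stood at 71.4 and 72.4 FPKM in CD115-Ly6C-, 187 and 146 FPKM in CD115+Ly6C+, and 124 and 128 FPKM in CD115+Ly6C-. Tfdp2, a partner of E2F factors, went the other way, with a log2 fold change of 0.87 (SE 0.12, edgeR adjusted p = 9.36e-04) for CD115-Ly6C- against CD115+Ly6C+.

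Of 26 S phase genes under E2F control, 3 were higher and 3 lower in CD115+Ly6C+ than in CD115+Ly6C-. In CD115-Ly6C- 0 were higher and 9 lower than in CD115+Ly6C- (median -0.29), and 3 were higher and 13 lower than in CD115+Ly6C+ (median -0.30). The shares of the list called were 23.1%, 34.6% and 61.5% in that order, against 9.60%, 15.2% and 39.3% of all tested genes. Tk1, thymidine kinase, stood at 116 and 119.9 FPKM in CD115-Ly6C-, 267 and 279.9 FPKM in CD115+Ly6C+, and 196 FPKM in both CD115+Ly6C- libraries. Mcm2, a subunit of the replicative helicase, went against Tk1. Its log2 fold change was 0.35 (SE 0.10, edgeR adjusted p = 0.026) for CD115-Ly6C- against CD115+Ly6C+. That call was less firm, held in 12 of 17 alternatives, whereas that of Tk1 in the same comparison held in all 17.

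The 24 G2 and M phase genes went mostly 1 way. In CD115-Ly6C- 0 were higher and 22 lower than in CD115+Ly6C- (median -1.08), and 0 were higher and 23 lower than in CD115+Ly6C+ (median -1.29), whereas 3 were higher and 0 lower in CD115+Ly6C+ than in CD115+Ly6C- (median 0.17). The shares of the list called in CD115-Ly6C- were 91.7% and 95.8%, against 15.2% and 39.3% of all tested genes. Birc5, which encodes the mitotic protein survivin, stood at 195 and 219 FPKM in CD115-Ly6C-, 585 and 671 FPKM in CD115+Ly6C+, and 425 and 402 FPKM in CD115+Ly6C-. Its log2 fold change was -1.12 (SE 0.12, edgeR adjusted p = 0.00152) for CD115-Ly6C- against CD115+Ly6C-. In the same comparison 1 of the 9 tested G1 genes was called, Cdkn2d, which was lower. Cdk6 had a log2 fold change of -0.40 and did not pass (edgeR adjusted p = 0.115), with a call in 3 of 17 alternatives.

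Of 23 tested genes of p53 and its targets, a list that holds Cdkn1a itself, 1 was higher and 2 lower in CD115+Ly6C+ than in CD115+Ly6C- (median -0.11). In CD115-Ly6C- 2 were higher and 1 lower than in CD115+Ly6C- (median 0.27), and 7 were higher and 2 lower than in CD115+Ly6C+ (median 0.35). The 3 calls of 23 in each comparison with CD115+Ly6C- stand beside 9.60% of all tested genes called for CD115+Ly6C+ and 15.2% for CD115-Ly6C-. Between CD115-Ly6C- and CD115+Ly6C+ 39.1% of the list was called, and 39.3% of all tested genes. The list was thus called about as often as all genes, and the genes named here are examples of its calls. Trp53inp1, a p53-induced nuclear protein, stood at 15.8 and 15.6 FPKM in CD115-Ly6C-, 2.62 and 2.91 FPKM in CD115+Ly6C+, and 3.55 and 4.99 FPKM in CD115+Ly6C-. Sesn1, a stress-response gene, had a log2 fold change of 1.27 (SE 0.12, edgeR adjusted p = 1.30e-04) for CD115-Ly6C- against CD115+Ly6C+. Gtse1, which restrains p53 in G2, had one of -0.89 (SE 0.15, edgeR adjusted p = 0.00252). Library totals gave 13 higher and 2 lower for that comparison, and 4 higher and 1 lower for CD115-Ly6C- against CD115+Ly6C-.

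Calls of the lists in CD115+Ly6C+ against CD115+Ly6C- rested on few libraries, and so did those of all genes. Leaving out a library of either subset left that subset without a replicate. Without CD115+Ly6C- replicate 1, 0 of the partners, S phase and G2 and M phase genes were called, and without CD115+Ly6C+ replicate 2 the counts were 1, 0 and 0. In CD115-Ly6C- against CD115+Ly6C-, the S phase count was 1 without CD115+Ly6C- replicate 1 or CD115-Ly6C- replicate 1, and 6 without CD115+Ly6C- replicate 2, while that of the partners was 3, 3 and 4. The G2 and M phase count stayed between 20 and 23 of 24. Library totals moved the split of the S phase genes to 2 higher and 5 lower for CD115+Ly6C+ against CD115+Ly6C-, and to 5 higher and 10 lower for CD115-Ly6C- against CD115+Ly6C+, where that of the partners was 5 higher and 10 lower too.

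**Figure D5:**
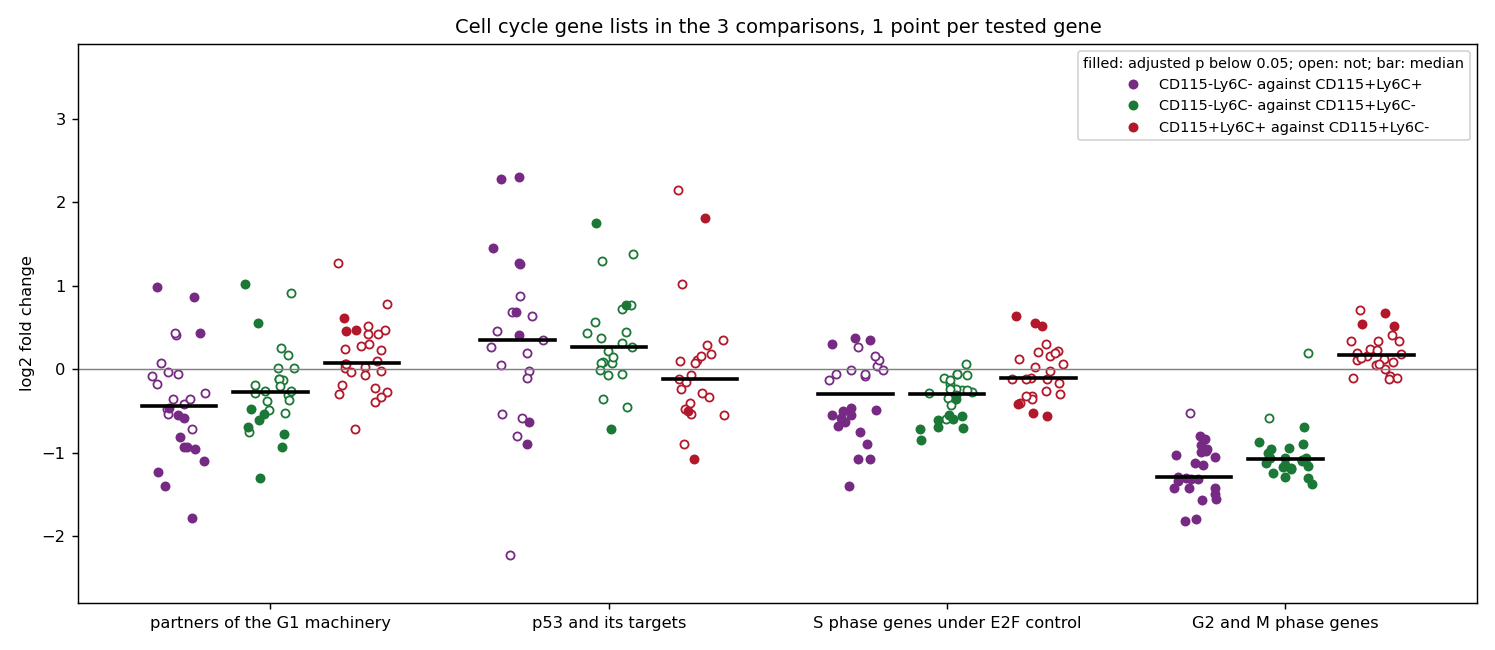
Log2 fold change of each tested gene in 4 lists (partners of the G1 machinery, p53 and its targets, S phase genes, G2 and M phase genes) in the 3 comparisons; filled points have an adjusted p below 0.05 and black bars are medians. The G2 and M phase genes all lie below 0 in CD115-Ly6C- against CD115+Ly6C+ (median -1.29). All but 1 do so against CD115+Ly6C- (median -1.08).

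For the 4 members called in at least 2 comparisons, the genes with the closest pattern over the 6 libraries were sought. The search covered 7869 tested genes with a mean of at least 5 FPKM in a subset, with predicted and unnamed gene models left out. Closeness was the Euclidean distance of log2 CPM centred on each gene, not scaled for the size of its changes. Nearest to Ccnd2 were Sprtn, Bptf and Lifr, each at a distance of 0.18. Nearest to Cdkn1a were Ctxn1 (0.26), Mef2c (0.27) and Hoxa9 (0.29). Cdkn2d lay close to H2-DMb1 (0.23), Anxa5 (0.25) and Tmem50b (0.28). Cdkn2c had no neighbour nearer than 0.70, that of Glrx5, with Tmem55b and Sap30 at 0.73. Mef2c and Hoxa9, transcription factors of lymphoid and stem cell programmes, stood at 72.7 and 26.4 FPKM on average in CD115-Ly6C-, against 25.7 and 7.15 FPKM in CD115+Ly6C+.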

How the data were processed

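PolyA RNA was sequenced from 6 libraries, 2 of each of 3 sorted subsets. Per the submitters' processing notes, reads were handled with Bowtie2 and RSEM on mm10, whose versions no source used here gives. Per the file headers, the deposited sample tables hold RSEM expected counts, FPKM and a weighted transcript length. Of expected counts above 0, 12.6% were not whole (tolerance 1e-06). The expected counts, rounded to whole numbers, entered edgeR 4.0.16 (glmQLFTest, R 4.3.3) with TMM scaling, filterByExpr (minimum count 10, minimum total 15), 1 fit over all 6 libraries, and Benjamini-Hochberg adjustment over 12127 genes with a threshold of 0.05. The common dispersion was 0.0231 (biological coefficient of variation 15.2%), with 3 residual degrees of freedom. The SE is the log2 fold change over the square root of F. The script was tested on simulated data. Alternatives used DESeq2 1.42.0, limma 3.58.1 on deposited FPKM with a pseudocount of 1 or 0.1, other scalings and filters, a replicate block, a length trend, and each library left out.

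The members, lists and tests were chosen with earlier results of these data known. All 10 members are named; of each list, up to 4 called genes with the smallest adjusted p, at most 3 in a direction. Coordinates are RefSeq's (GRCm38.p6, the assembly of mm10); exon overlaps are from GENCODE vM21. The looser p53 search was added after the strict one found no match. Replicate libraries differed by more than sampling noise (chi-square over its degrees of freedom, 18.84 to 21.42). Summed marker levels are CPM on library totals.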

Additional observations from a re-analysis of the deposited data

How the results depend on the processing

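Cdkn2c and Cdkn1a in CD115+Ly6C+ against CD115+Ly6C-, and Ccnd2, Cdkn1a, Cdkn2c and Cdkn2d in CD115-Ly6C- against CD115+Ly6C+, kept their direction and their call in all 17 alternatives, and no called gene reversed. The cause of the changes below was not tested. For CD115+Ly6C+ against CD115+Ly6C-, the members called numbered 3 with the length trend removed and 3 with limma on unfiltered FPKM. The G1 partners called were 0 in each of the 3 limma fits. S phase genes called were 2 with the length trend. G2 and M phase genes called were 5 with DESeq2, 5 without a filter, 1 with the length trend and 1 with limma on unfiltered FPKM. Over all genes 1810 were called without a filter, 711 with the length trend and 415 with limma on unfiltered FPKM. For CD115-Ly6C- against CD115+Ly6C-, members called were 2 with DESeq2 and without a filter, and 0 with a stricter filter, with only the 2 subsets fitted and with limma on unfiltered FPKM. With library totals and with limma on log2(FPKM + 1) the 1 member called was higher and not lower. Limma on unfiltered FPKM called 5 G1 partners and 5 S phase genes. The p53 list had 5 calls with library totals, 6 without a filter and 6 with limma at either pseudocount. For CD115-Ly6C- against CD115+Ly6C+, the p53 list had 15 calls with library totals and 14 with limma on log2(FPKM + 1), and the S phase list 10 with the length trend.

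Leaving out each library in turn gave, for CD115+Ly6C+ against CD115+Ly6C-, 2 to 5 members, 0 to 2 partners, 1 to 2 p53 genes, 0 to 5 S phase genes, 0 to 3 G2 and M phase genes and 220 to 1139 genes in all. For CD115-Ly6C- against CD115+Ly6C- it gave 0 to 1 members, 3 to 8 partners, 2 to 3 p53 genes, 1 to 9 S phase genes, 20 to 23 G2 and M phase genes and 485 to 1744 in all. For CD115-Ly6C- against CD115+Ly6C+ it gave 4 to 5 members, 10 to 14 partners, 6 to 8 p53 genes, 9 to 15 S phase genes, 23 to 24 G2 and M phase genes and 2983 to 4632 in all.

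Over all genes, deviations of libraries with the same replicate number had a correlation of 0, -0.01 and 0.15 in the 3 comparisons, and the numbers were not taken to pair them. Single genes of the p53 list, such as Btg2, Plk2 and Pmaip1 (chosen after their values were seen), were higher in replicate 2 than in replicate 1 in each subset. With the replicate block, 5, 1 and 4 members were called in CD115+Ly6C+ against CD115+Ly6C-, CD115-Ly6C- against CD115+Ly6C- and CD115-Ly6C- against CD115+Ly6C+. In the first of these the block left 1 partner and 1 p53 gene, and in the next it gave 5 p53 genes. Of the members, only Cdkn1c fell to the filter on low counts, with 1 to 13 counts a library. Whether depth limited the calls of other members was not tested.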
